A study of Mus musculus with 6 samples.

Results

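Cyclins are the regulatory subunits that switch on cyclin-dependent kinases, and each type acts in its own part of the cell cycle. D cyclins act in G1 and E cyclins at the start of DNA replication. A cyclins act in S phase and G2 and B cyclins in G2 and division, and both can bind Cdk1. Germ cells add their own forms: Ccna1 encodes the cyclin A of late meiotic prophase spermatocytes, and Ccnb3 encodes a B-type cyclin whose mRNA in the testis is known from the first stages of meiotic prophase.

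The 10 genes described here are Ccna1, Ccna2, Ccnb1, Ccnb2, Ccnb3, Ccnd1, Ccnd3, Ccne1, Ccne2 and Cdk1, chosen by symbol from the 54532 genes of the deposited count table. Ccna1 and Ccnb3 were set as the germ cell forms against the mitotic forms of cyclin A and cyclin B. RNA-seq libraries came from leptotene/zygotene (L/Z) spermatocytes, the cells of early meiotic prophase, sorted from testes of C57BL/6J mice at 12 days postpartum (dpp). There were 3 control libraries, labelled wild type and described as littermates, and 3 Eef1g-cKO libraries. In the Eef1g-cKO males a Stra8-GFPCre transgene, active from differentiating spermatogonia onward, deleted exons of Eef1g, which encodes the gamma subunit of elongation factor eEF1. Cells that do not express the transgene kept the gene. Nothing in the labels says whether replicates came from separate animals, so p-values measure only the spread between these libraries, which may be technical.

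Library totals ran from 763133 to 2617648 reads assigned to genes, and 3 reads, taken as the detection floor, were worth between 1.18 and 4.63 CPM (reads per 1000000 of the scaled library). Eef1g-cKO replicate 3 was the shallowest library and had the largest share of rRNA reads, 9.23%, against 2.73% to 6.29% in the others. Controls had reads for 14903 to 15761 genes and Eef1g-cKO libraries for 11174 to 14514, and mitochondrial genes held 8.48% to 10.3% and 5.45% to 7.52% of reads. Their part in the low counts reported here was not tested. Eef1g itself had 222, 226 and 212 CPM in the controls and 139, 151 and 119 CPM in the Eef1g-cKO libraries, which is -0.68 on the log2 scale (SE 0.20, edgeR adjusted p = 0.0290). The groups did not overlap, but reads of the whole gene are counted together, so the deleted exons could not be read separately.

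Of the 10 genes, 8 had enough reads to be tested and 2, Ccna1 and Ccnd3, did not. In Eef1g-cKO cells Ccnb3 rose 2.79-fold and Ccnd1 fell to 0.325 of its control level, and these were the only tested members called (adjusted p below 0.05, log2 fold change beyond 1 in either direction). One in 8 tested members is 12.5% in each direction, beside 3.42% of all 8513 tested genes called higher and 4.96% called lower. Without the fold change limit the same members passed, beside 7.8% of all tested genes higher and 6.01% lower. Among the 8 tested members, CPM did not overlap between genotypes for 2 that were higher (Ccnb3 and Ccne2) and 3 that were lower (Ccna2, Ccnb1 and Ccnd1), beside 16.4% and 18.1% of all tested genes. The untested Ccnd3 was also lower without overlap, at counts near the floor. Log2 fold changes had a median of 0.11 over the 8 tested members and -0.05 over all tested genes.

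**Figure D1:**
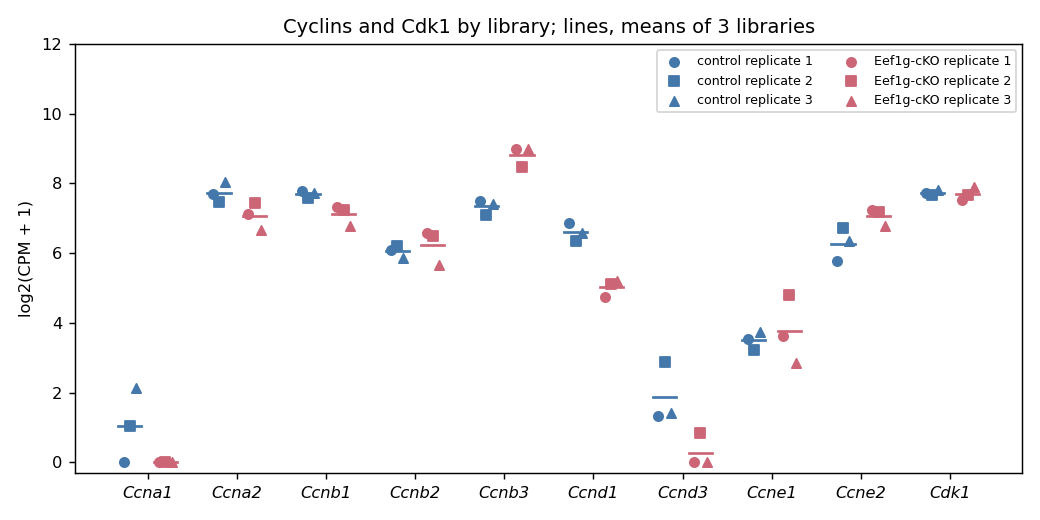
log2(CPM + 1) of the 10 genes in each of the 6 libraries, blue for control and red for Eef1g-cKO, with a marker shape for each replicate number and lines at the mean of 3 libraries. Ccnb3 was higher and Ccnd1 lower in every Eef1g-cKO library than in any control library, Cdk1 overlapped, and Ccna1 had no read in Eef1g-cKO cells.

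The starts of the B cyclin and Cdk1 genes are shown to set the germ cell B-type cyclin beside the mitotic genes. Mitotic cell cycle genes are known for CCAAT boxes, bound by NF-Y, and for TTTGAA, the CHR element bound by the MuvB complex, near their start. Both words were searched on both strands in the 250 bases before each gene's RefSeq start (GRCm38.p6), and the words can share at most 1 end base, which they do in none of the printed sequences. Letters are printed 5′ to 3′ along the gene's strand, in lower case with either word, or its reverse complement ATTGG or TTCAAA, in capitals, and they stop where the count table's own annotation of the gene begins.
Ccnb2 (chr9:70421555-70421804, minus strand): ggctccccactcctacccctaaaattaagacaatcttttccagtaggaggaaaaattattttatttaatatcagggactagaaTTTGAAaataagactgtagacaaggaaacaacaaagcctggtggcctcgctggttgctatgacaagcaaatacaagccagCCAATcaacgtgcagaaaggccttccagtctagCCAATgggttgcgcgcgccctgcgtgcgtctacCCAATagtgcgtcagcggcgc
Cdk1 (chr10:69352939-69353162, minus strand): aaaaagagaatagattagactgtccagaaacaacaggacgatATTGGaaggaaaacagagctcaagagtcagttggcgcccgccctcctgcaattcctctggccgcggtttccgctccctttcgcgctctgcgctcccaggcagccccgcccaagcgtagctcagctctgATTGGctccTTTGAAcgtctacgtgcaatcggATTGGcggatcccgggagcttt
Ccnb1 (chr13:100786571-100786736, minus strand): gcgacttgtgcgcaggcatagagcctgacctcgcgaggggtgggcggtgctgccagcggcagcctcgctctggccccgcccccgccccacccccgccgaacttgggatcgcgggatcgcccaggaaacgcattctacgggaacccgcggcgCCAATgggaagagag
Ccnb3 (chrX:7041620-7041869, minus strand): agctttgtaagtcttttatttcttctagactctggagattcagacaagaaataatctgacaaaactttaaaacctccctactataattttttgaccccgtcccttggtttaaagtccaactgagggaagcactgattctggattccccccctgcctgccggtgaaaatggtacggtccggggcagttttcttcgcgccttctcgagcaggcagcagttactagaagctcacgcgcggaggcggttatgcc

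Ccnb2 and Cdk1 each held 3 CCAAT words in the 250 bases, a number reached by 2.79% of all 32851 windows searched. In Ccnb2 they began 87, 54 and 21 bases before the start, and in Cdk1 208, 80 and 48 bases before it. Ccnb1 held 2, beginning 99 and 67 bases before the start, of which the second lies beyond the printed letters. At least 2 were held by 10.1% of windows. TTTGAA was in Ccnb2, 167 bases before the start, and in Cdk1, 71 and 15 bases before it, the latter beyond the printed letters, and in 16.0% of windows. Ccnb3 and Ccne1 held neither word, like 55.7% of windows. Ccna1 held 1 CCAAT, as did 1 of the 2 windows of Ccnd3, and 33.8% of windows held at least 1. Both of these windows lie wholly inside the gene as the count table annotates it, not before its start there. RefSeq windows were matched for 7 of the 10 genes, and Ccna2, Ccnd1 and Ccne2 were not matched. These are matches of letters and not measured binding.

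Ccnb3 (chrX:6979652-7041619, minus strand), the germ cell B-type cyclin, changed most among the tested B cyclins. Its level was 181, 136 and 171 CPM in the controls and 506, 356 and 502 CPM in the Eef1g-cKO libraries. Every Eef1g-cKO library lay above every control, and the lowest of them, replicate 2, was also the deepest. The log2 fold change was 1.48 (SE 0.19, edgeR adjusted p = 7.1e-05), with a 95% interval of 1.07 to 1.89. Without the shallow Eef1g-cKO replicate 3 it was 1.44. No annotated gene overlaps Ccnb3 in the table.

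Several leptotene and zygotene marker genes rose as well. Their summed level was 8859 to 10073 CPM in the controls and 18730.4 to 24339.5 CPM in Eef1g-cKO cells. Of 9 tested markers 5 were called higher, beside 3.42% of all tested genes, and the median log2 fold change was 1.04. Per 1000 reads of these 10 markers there were 20.4, 13.5 and 18.0 Ccnb3 reads in the controls and 25.2, 19.0 and 20.6 in the Eef1g-cKO libraries. On that scale, chosen after the values were seen, the groups overlapped (exact 2-sided permutation p = 0.2, n = 3 and 3, where 0.1 is the smallest possible). Sycp1 alone held 4815 to 5253 CPM of the sum in the controls and 8558 to 13147.5 CPM in Eef1g-cKO cells. The tested markers ran from 0.06 to 1.87 in log2 fold change. Meiob (0.06) and Spo11 (0.07), named after their values were seen, were nearly level. The overlap thus holds for this sum, and other choices of markers were not tried. In bulk libraries more cells of a stage and more RNA per cell cannot be told apart.

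Ccnb1 (chr13:100778650-100786570, minus strand), the main cyclin partner of Cdk1 in mitosis, had 218, 191 and 212 CPM in the controls. In the Eef1g-cKO libraries it had 158, 149 and 110 CPM, all below the controls. The log2 fold change of -0.56 (SE 0.21) did not pass (edgeR adjusted p = 0.0871), and its 95% interval ran from -0.998 to -0.12. Without the shallow Eef1g-cKO replicate 3 the change was -0.39. Its processed pseudogene Ccnb1-ps held 24 reads over all 6 libraries, and how reads shared by both copies were counted is not stated.

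Ccnb2 (chr9:70407692-70421547, minus strand), the second mitotic B cyclin, was spread more widely. The control values were 67.2, 73.0 and 57.7 CPM and the Eef1g-cKO values 94.6, 89.0 and 49.4 CPM. Replicates 1 and 2 of the latter were above all controls and the shallow replicate 3 was below them. Its log2 fold change was 0.26 (SE 0.31, edgeR adjusted p = 0.631, 95% interval -0.38 to 0.90), and 0.51 without replicate 3.

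The ratio of Ccnb3 reads to the sum of Ccnb1 and Ccnb2 reads compares germ cell with mitotic forms inside each library, independently of library scaling. It was 0.635, 0.517 and 0.634 in the controls and 2.00, 1.49 and 3.16 in the Eef1g-cKO libraries without overlap. Per kilobase of the gene length deposited with the counts, it was 0.415, 0.322 and 0.426 in the controls and 1.12, 0.832 and 1.89 in the Eef1g-cKO libraries. The groups again did not overlap, but in Eef1g-cKO replicate 2 the level of Ccnb3 was still below that of both mitotic forms together. On the log2 scale, with 0.5 read added to each sum, the means were -0.75 ± 0.17 and 1.08 ± 0.54 (SD, n = 3 each). The difference of 1.83 reached the smallest p that 3 against 3 allows, 0.1 (exact 2-sided permutation test), which cannot pass 0.05. The choice of Ccnb3 and of this ratio was made with earlier results of these data known.

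**Figure D2:**
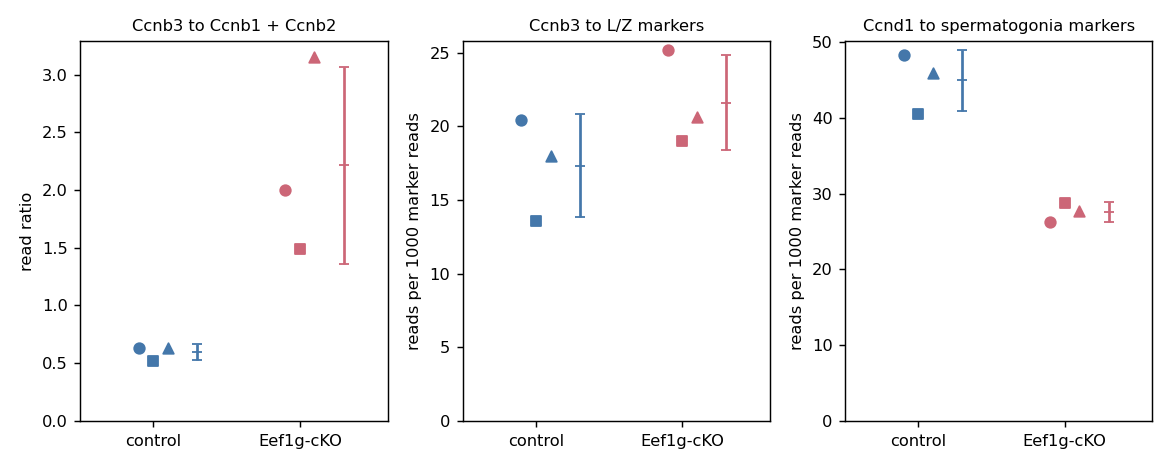
Read ratios in each library, with a marker shape for each replicate number and the mean ± SD of 3 libraries beside the points: Ccnb3 to Ccnb1 plus Ccnb2 (left), Ccnb3 per 1000 reads of L/Z markers (middle) and Ccnd1 per 1000 reads of spermatogonia markers (right). The left ratio, of reads not corrected for gene length, was higher in each Eef1g-cKO library than in any control, and the middle groups overlapped. The right groups did not, although they did once Dmrt1 and Stra8, which fell less than the markers called lower, were left out.

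Cyclin A was almost wholly of the mitotic form. Ccna2 (chr3:36564865-36572150, minus strand), which acts in S phase and G2, had 206, 176 and 261 CPM in the controls and 140, 172 and 100 CPM in the Eef1g-cKO libraries. The highest Eef1g-cKO library lay just under the lowest control. The fitted log2 change of Ccna2 was -0.62 (SE 0.23, edgeR adjusted p = 0.0858, 95% interval -1.11 to -0.13). Ccna2 overlaps Exosc9 on the other strand, which had 593 reads over all libraries, and whether counting used strand is not stated.

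Ccna1 (chr3:55045469-55055501, minus strand), the germ cell form, had 0, 2 and 6 reads in the controls and 0 reads in each Eef1g-cKO library. Only control replicate 3 was above the floor of 3 reads. Pooled, there were 8 reads against 0. A floor of 3 reads over the Eef1g-cKO group would lie 2.36-fold below the pooled control level. That value takes the 8 control reads as exact, so it is not a bound on the change. It also rests on control replicate 3: without it 2 control reads remain, under the floor, and no value can be given. Reads without molecular identifiers are, besides, not independent molecules. The log2 ratio of Ccna1 to Ccna2, with 0.5 read added to each, was -7.44 ± 1.49 in the controls and -8.42 ± 1.37 in Eef1g-cKO cells (SD, n = 3 each; exact 2-sided permutation p = 0.5). With every Eef1g-cKO value set by the added 0.5 read, no difference of this ratio was detectable at this depth.

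Markers of pachytene and later germ cells, where Ccna1 is mainly known, were low in both groups. Their summed level was 157 to 209.9 CPM in the controls and 102 to 148 CPM in Eef1g-cKO cells. Tbpl1 alone held 111 to 127 and 98.9 to 118 CPM of these, and the other 9 markers together 45.9 to 83.2 and 3.09 to 33.7 CPM. Of the 10, 5 were tested, and 1 of these was called lower, beside 4.96% of all tested genes. It was Piwil1, named for its call, with 34, 22 and 30 reads in the controls and 0, 1 and 0 in the Eef1g-cKO libraries. Acrv1 had no read in any library. The part of these cells in the Ccna1 reads was not tested.

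Ccnd1 (chr7:144929931-144939925, minus strand), a G1 cyclin that drives Cdk4 and Cdk6, was the tested member that fell past both limits. It had 116, 81.4 and 95.2 CPM in the controls and 25.9, 33.7 and 35.5 CPM in the Eef1g-cKO libraries. All Eef1g-cKO values were below all controls. The log2 fold change was -1.62 (SE 0.31, edgeR adjusted p = 0.00197, 95% interval -2.28 to -0.97), and -1.65 without Eef1g-cKO replicate 3. Ccnd1 overlaps Oraov1 on the other strand, which had 168 reads in all.

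Ccnd2, the D cyclin of differentiating spermatogonia and a gene of the list of other cyclins, fell further, from 108 ± 34.1 to 21.5 ± 7.04 CPM (SD, n = 3 each), a log2 fold change of -2.37. Ccnd3 (chr17:47505051-47599691, plus strand), the remaining D cyclin, had 2, 12 and 3 reads in the controls and 0, 2 and 0 reads in the Eef1g-cKO libraries. Its pooled 2 against 17 reads gave a ratio of levels, scaled for library size, of 0.133 with an exact counting interval of 0.0149 to 0.559. That interval takes reads as independent and leaves out the spread between libraries, so it is not a test of the genotypes. Most of the control reads came from replicate 2, and without it 5 remain. Ccnd3 overlaps Bysl on the other strand, which had 90 reads. Cdk4 and Cdk6, the kinases of the D cyclins, were named after their values were seen: their log2 fold changes were -2.10 and -1.50, with CPM that did not overlap and edgeR adjusted p of 0.0555 and 0.0668.

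Several markers of spermatogonia and of testis somatic cells were also lower. Spermatogonia markers summed to 2008 to 2399.7 CPM in the controls and 987 to 1280.5 CPM in Eef1g-cKO cells. Of the 7 tested, 4 (Sall4, Uchl1, Sohlh1 and Kit, named after their values were seen) were called lower, beside 4.96% of all tested genes. Without the fold change limit 6 passed as lower, beside 6.01%, and the median log2 fold change was -1.22. Of 12 listed, Nanos3 and Lin28a had no read in Eef1g-cKO libraries, and 2, 6 and 6 and 18, 5 and 13 reads in the controls. Per 1000 reads of these markers, a scale chosen after the values were seen, Ccnd1 had 48.3, 40.5 and 46.0 reads in the controls and 26.2, 28.8 and 27.7 in Eef1g-cKO cells. Those groups did not overlap (exact 2-sided permutation p = 0.1, the smallest possible), but Dmrt1 and Stra8 gave between 62.7% and 77.4% of the marker reads. Without these genes the values were 154, 120 and 123 in the controls and 98.8, 127 and 114 in Eef1g-cKO cells, which overlapped (exact p = 0.3). Per 1000 reads of the 4 markers called lower they were 172, 138 and 137 against 115, 172 and 154, which overlapped as well (exact p = 1). Those 4 were picked for their fall in these same data, which draws the ratio toward no difference. Nothing is concluded from it. Whether the Ccnd1 groups overlapped on this scale thus depended on whether Dmrt1 and Stra8 were counted. Their log2 fold changes of -0.73 and -0.69 were smaller falls than those of the 4 markers called lower. Leaving them out, also chosen after the values were seen, therefore draws the ratio the same way, and nothing is concluded from that either.

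Sertoli cell markers summed to 84.7 to 281 CPM in the controls and 1.54 to 45.3 CPM in Eef1g-cKO cells. Of these, 2 of 4 tested were called lower, beside 4.96% of all tested genes. Amh, Gata4 and Dhh, 3 of the 9 Sertoli genes, had no read in Eef1g-cKO libraries. Their control reads were also few: 0, 0 and 2 for Amh, 0, 2 and 2 for Gata4, and 4, 7 and 0 for Dhh. Rhox5, of the same list, had 0, 8 and 0 reads in the controls and 0, 18 and 0 in the Eef1g-cKO libraries. Peritubular and stromal markers summed to 161 to 294 and 18.5 to 73.7 CPM, with 3 of 4 tested called lower, beside the same 4.96%. Leydig cell markers summed to 8.40 to 10.7 and 1.57 to 6.47 CPM, none could be tested, and Cyp17a1, Hsd3b1 and Hsd17b3 had no read in any library. Blood cell and macrophage markers summed to 6.72 to 77.9 and 3.23 to 75.7 CPM, with 1 of 7 tested and not called, and Cd74 and Csf1r had no read. The part of these cells in the Ccnd1 and Ccnd3 values was not tested.

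E cyclins, the partners of Cdk2 at the start of S phase, were not called in either direction. Ccne2 (chr4:11191351-11204779, plus strand) had 53.4, 104 and 80.6 CPM in the controls and 150, 144 and 110 CPM in the Eef1g-cKO libraries, without overlap. The log2 fold change of 0.76 (SE 0.27, 95% interval 0.19 to 1.34) did not pass (edgeR adjusted p = 0.0721). Without the shallow Eef1g-cKO replicate 3 it was 0.91 with an edgeR adjusted p of 0.0233. With any other library left out it did not pass (edgeR adjusted p from 0.0597 to 0.270). Ccne2 overlaps Ints8 on the other strand, which had 459 reads.

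Ccne1 (chr7:38097984-38107534, minus strand) was the lowest of the tested members, at 10.7, 8.40 and 12.3 CPM in the controls. In the Eef1g-cKO libraries it had 11.3, 27.1 and 6.18 CPM, and replicate 2 alone stood above the controls. On the log2 scale its fitted change was 0.58 (SE 0.64, edgeR adjusted p = 0.609, 95% interval -0.77 to 1.93), and -0.20 without that library.

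Cdk1 (chr10:69335146-69352938, minus strand), the kinase that A and B cyclins activate, had 212, 202 and 224 CPM in the controls. The Eef1g-cKO values of 184, 202 and 236 CPM lay on both sides of them. Its change was -0.04 on the log2 scale (SE 0.19, edgeR adjusted p = 0.915), and its 95% interval of -0.44 to 0.36 was the narrowest among the tested members.

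**Figure D3:**
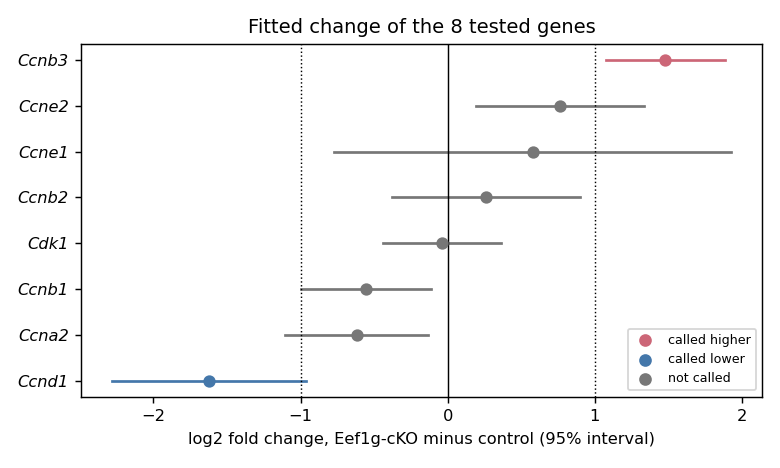
Fitted log2 fold change (Eef1g-cKO minus control) of the 8 tested genes with 95% intervals; dotted lines mark the limits of -1 and 1. Ccnb3 was called higher and Ccnd1 lower, while the intervals of Ccne2, Ccnb1 and Ccna2 left out 0 before adjustment.

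Levels of different genes can be set side by side only per length, as CPM per kilobase. The lengths were those deposited with the counts, such as 4934 bases for Cdk1, 4217 for Ccnb1 and 1531 for Ccnb2. They were not checked against the transcripts present in these cells, and the orders and shares below depend on them. In the controls the order was Ccna2 (52.5 ± 10.6), Ccnb1 (49.0 ± 3.29), Cdk1 (43.1 ± 2.26), Ccnb2 (43.1 ± 5.05), Ccnb3 (35.6 ± 5.10), Ccne2 (22.7 ± 7.23), Ccnd1 (20.7 ± 3.70), Ccne1 (3.93 ± 0.739), Ccna1 and Ccnd3 (SD, n = 3). Neighbours among the first 5 had overlapping ranges, as did Ccne2 with Ccnd1 and Ccna1 with Ccnd3. The steps from Ccnd1 to Ccne1 and from Ccne1 to Ccna1 were clear of each other. Ccnb3 and Ccne2 did not overlap but nearly met, at 29.9 and 29.7, both in control replicate 2. In Eef1g-cKO cells Ccnb3 stood first at 99.6 ± 18.8, apart from Ccnb2 (50.7 ± 16.1). Cdk1 (42.0 ± 5.36), Ccne2 (38.5 ± 6.24), Ccna2 (33.7 ± 8.80) and Ccnb1 (33.0 ± 6.16) followed with overlapping ranges, then Ccnd1 (6.73 ± 1.09) and Ccne1 (5.58 ± 4.09), which overlapped each other. Ccnd3 and Ccna1 came last.

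Shares of the summed level of the 9 cyclins show the same values by library. Ccnb3 made up 15.5% ± 1.75 of it in the controls and 37.6% ± 9.18 in Eef1g-cKO cells (SD, n = 3 each). Ccna2 made up 22.8% ± 3.54 and 12.5% ± 2.64, Ccnb1 21.4% ± 0.895 and 12.3% ± 1.01, and Ccnd1 9.04% ± 1.48 and 2.57% ± 0.690. Ccnb2 had shares of 18.9% ± 3.09 and 18.6% ± 4.22, which overlapped. The share of Ccne2 was 9.99% ± 3.52 and 14.3% ± 0.853, and that of Ccne1 1.71% ± 0.244 and 2.05% ± 1.47. Shares sum to 100%, so they are not independent of each other.

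**Figure D4:**
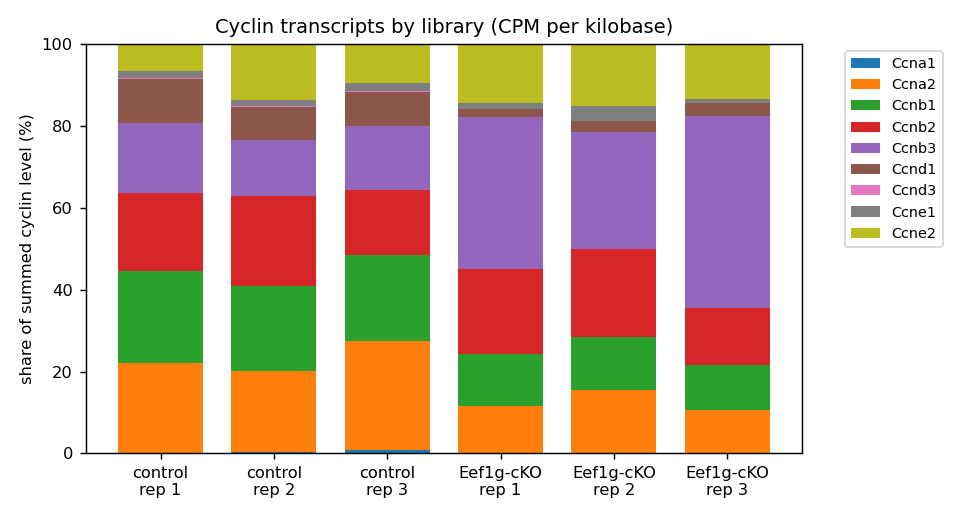
Share of each of the 9 cyclins in their summed level (CPM per kilobase, in %) in each library, as stacked bars from 0 to 100. Ccnb3 took between 13.7% and 17.3% in the controls and between 28.6% and 47.0% in the Eef1g-cKO libraries.

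Other genes of cyclin control were read from 8 lists with 106 different genes, of which 88 were tested. Of these, 7 were called higher and 3 lower, beside the 3.42% and 4.96% over all tested genes, and 14 and 5 passed without the fold change limit. Their median log2 fold change was 0.17. Leaving out Eef1g-cKO replicate 2 raised the number called lower from 3 to 7.

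Among the other cyclins, 15 of 19 were tested, with a median of 0.13. Ccnc, the cyclin of the Mediator kinase module, rose by 1.32 (SE 0.24) on the log2 scale, and Ccnd2 fell as described. Among 8 kinases and cofactors (median 0.23), Spdya, which activates Cdk2 and holds it at meiotic telomeres, rose by 1.43 (SE 0.25). Its CPM went from 88.3 ± 26.3 to 237 ± 48.8 (SD, n = 3 each).

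No gene was called among the CDK inhibitors and inhibitory kinases (4 of 9 tested, median 0.13) or among the phosphatases and kinases that switch Cdk1 on (5 of 6 tested, median -0.19). None of these 9 tested genes passed without the fold change limit either. Wee1, the inhibitory kinase of Cdk1, had 106 ± 9.95 and 88.1 ± 26.6 CPM. Plk1, which promotes entry into division, had 39.0 ± 2.36 and 21.6 ± 18.4 CPM. Both are named after their values were seen, as the best known regulators of Cdk1 in the lists.

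Among 24 genes of cyclin degradation, mainly subunits and regulators of the anaphase-promoting complex, 22 were tested and the median was 0.02. Anapc13, a small subunit of that complex, fell by 1.28 on the log2 scale (SE 0.26), from 134 ± 11.3 to 54.8 ± 1.98 CPM (SD, n = 3 each). It was the single gene of the list called in either direction.

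The RB, E2F and MuvB list, whose proteins set the transcription of cyclin genes, had 16 of 20 genes tested and a median of 0.35. Mybl1, the germ cell MYB factor of male meiosis, rose by 1.38 (SE 0.28), and Tfdp2, a dimer partner of E2F proteins, rose by 1.02 (SE 0.23). Of these 16 genes, 4 passed higher without the fold change limit and 0 lower, beside 7.8% and 6.01% of all tested genes.

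Of 14 genes of G2 and mitosis, 13 were tested, with a median of 0.11. Bub1, a kinase of the spindle checkpoint, rose by 1.06 (SE 0.15), from 528 ± 48.0 to 1104 ± 93.0 CPM. Aurkb, the kinase of the chromosomal passenger complex, fell by 2.54 on the log2 scale (SE 0.51), from 40.8 ± 9.95 to 6.68 ± 2.13 CPM (SD, n = 3 each).

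In the meiotic entry list 5 of 6 genes were tested, with a median of 0.87. Dazl, an RNA-binding protein of germ cells, rose by 1.27 (SE 0.12), and Meioc, which promotes the meiotic cell cycle by holding back mitotic transcripts, rose by 1.21 (SE 0.19). With no limit on the fold, 4 genes passed as higher and 1 as lower, beside 7.8% and 6.01% of all tested genes. The lower gene was Stra8, the inducer of meiosis and also a spermatogonia marker here, at -0.69 (SE 0.20, edgeR adjusted p = 0.0265).

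**Figure D5:**
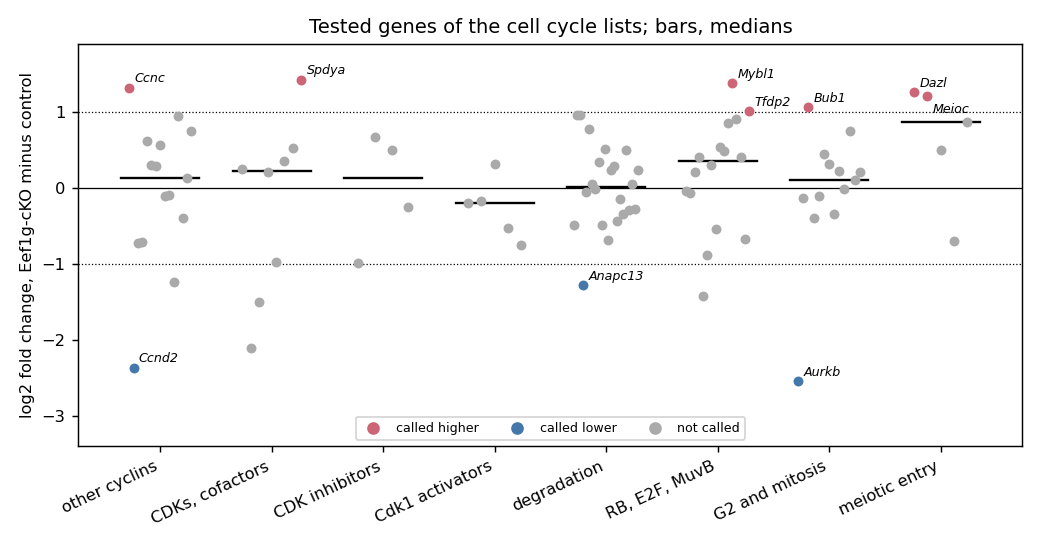
Fitted log2 fold change (Eef1g-cKO minus control) of each tested gene in 8 lists, with the list median as a bar and dotted lines at -1 and 1; named points are the called genes. Called genes lay on both sides of 0, with Spdya the highest at 1.43 and Aurkb the lowest at -2.54.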

How the data were processed

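The authors trimmed reads with fastp, aligned them with HISAT2 to GRCm38 (mm10) and counted them with featureCounts, as their methods and the labels state, and they deposited raw counts of reads for each gene in 3 control and 3 Eef1g-cKO libraries. The authors' cDNA was amplified from polyadenylated RNA without molecular identifiers. Counting strand and multi-mapping are not given in the sources used here.

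Groups came from sample titles. Genes were kept with filterByExpr (minimum count 10, minimum total 15), which left 8513 genes with 98.1% of the reads, and tested with the robust quasi-likelihood test of edgeR 4.0.16 in R 4.3.3 on TMM-scaled counts with a genotype term alone. Benjamini-Hochberg adjustment ran over all tested genes. Genes were called where the adjusted p was below 0.05 and the log2 fold change lay beyond 1 in either direction. In counts simulated for this comparison, 50 genes each were set to log2 changes of 1, 1.5, 2 and 3. Of these, 26%, 62%, 70% and 94% had an adjusted p below 0.05 and the right sign. The fold change limit was not applied there. Ratios were tested by exact permutation (scipy 1.17.1). Chi-square over degrees of freedom was at least 6.37 for any pair of libraries, so all 6 were kept. Named genes were the 10 members, Eef1g and up to 3 called genes per list and direction with the largest absolute change, and other genes carry a remark, except markers given because they had no read. The symbols Ccnq and Meiosin were matched through reference tables. Members and lists were chosen with earlier results of these data known. Alternatives were other scalings, filters and tests (DESeq2 1.42.0, limma 3.58.1), a replicate block, a gene length offset, ratio pseudocounts and leaving out each library. Removal of rRNA and mitochondrial genes and thinning to the smallest library were added after seeing the data, as were the marker scales for Ccnb3 and Ccnd1.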

Additional observations from a re-analysis of the deposited data

How the results depend on the processing

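Ccnb3 was called higher and Ccnd1 lower under all 21 alternatives, from 1.28 to 1.65 and from -1.81 to -1.46 on the log2 scale, with adjusted p up to 0.00112 and 0.0220. Ccnb2 stayed between 0.09 and 0.51 and was not called. The cause of the changes below was not tested.

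Ccna2 passed an adjusted p of 0.05 with upper-quartile scaling (-0.74) and with a stricter filter of 10 or more reads per library (-0.75). It also passed without Eef1g-cKO replicate 2 (edgeR adjusted p = 0.0464). Ccnb1 passed with upper-quartile scaling (-0.68), library totals (-0.74) and the stricter filter (-0.69). Ccne2 passed with limma-voom (0.80), the gene length offset (0.91), thinned libraries (0.91) and without Eef1g-cKO replicate 3. In the main fit the unadjusted edgeR p was below 0.05 for Ccna2 (-0.62), Ccnb1 (-0.56) and Ccne2 (0.76), but their adjusted p was not. None of the 3 was called under any setting. Cdk1 turned to 0.080 with the gene length offset and to 0.064 without Eef1g-cKO replicate 1, and Ccne1 to -0.20 without Eef1g-cKO replicate 2. With a library left out, log2 fold changes ran from -0.80 to -0.42 for Ccna2, -0.62 to -0.39 for Ccnb1, 0.14 to 0.51 for Ccnb2, 1.37 to 1.65 for Ccnb3, -1.73 to -1.46 for Ccnd1, -0.20 to 0.94 for Ccne1, 0.56 to 1.01 for Ccne2 and -0.10 to 0.06 for Cdk1.

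Genes called higher numbered 291, and 181 with upper-quartile scaling, 141 with library totals, 177 under the stricter filter and 664 without the fold change limit. Genes called lower numbered 422, and 250 under the stricter filter and 819 at an unadjusted p. They numbered 515 with upper-quartile scaling and 531 with library totals, scalings that moved the median of all genes from -0.05 to -0.17 and -0.24, while the gene length offset gave 417 higher and 346 lower. Leaving out a library gave 229 to 356 higher and 207 to 548 lower, the lowest being 209, 207 and 210 without control replicate 1, 2 or 3. List genes called higher went from 7 to 14 and lower from 3 to 5 without the fold change limit, and to 6 to 10 and 3 to 7 with a library left out.

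The log2 ratio of Ccna1 to Ccna2 differed by -0.98 between genotypes, by 0.017 with 2 reads added and by -1.80 to -0.30 with a library left out. That of Ccnb3 to Ccnb1 plus Ccnb2 differed by 1.54 to 2.08 with a library left out, where 0.2 is the smallest p.

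Deviations of libraries with the same replicate number correlated at -0.04, 0.02 and -0.05, so no effect shared by replicate number was seen. This cannot tell whether the samples were paired. A replicate block gave 249 genes higher and 328 lower and left Ccnb3 at 1.47 and Ccnd1 at -1.61. With the gene length offset as well, the block gave 369 and 287, Ccne2 at 0.94 (adjusted p = 0.0416) and Cdk1 at 0.078.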
